A study of Caenorhabditis elegans with 2 samples.

Results

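The strong coding-exon peaks described here are 827 sites on the 5 autosomes of Caenorhabditis elegans at which chromatin immunoprecipitation of a GFP-tagged CEH-63 protein gave a peak inside the protein-coding sequence of a gene. They were selected on the signal of the list of peaks that the authors called on both replicates together (the pooled list of 30000 peaks). A peak was kept if it ranked within the top 3000 by signal, lay outside the X chromosome, and had its summit inside a coding segment of a protein-coding gene of the Ensembl WBcel235 annotation. Of those 3000 peaks, 524 were on X and 2476 on autosomes, and the 827 stood beside 788 intergenic, 645 intronic, 117 UTR and 99 non-coding-exon peaks. Signal and rank are the authors' own values and chose these peaks, so both are given as a description. A further 7763 autosomal coding-exon peaks ranked beyond 3000 and are called weaker coding-exon peaks.

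The study consists of 2 biological replicates that form a single group. Both came from strain OP742, in which the transgene wgIs742 expresses C02F12.10 (the sequence name of ceh-63) joined to TY1, EGFP and 3xFLAG together with unc-119(+), in animals that carry the mutation unc-119 (tm4063). Chromatin came from intact L1 larvae, males and females together, that were starved after bleaching and 6 hours old, and was sonicated to 200 to 800 bp. An anti-GFP antibody was used per the sample description, although the antibody field reads ceh-63, and a control library was not analysed here. The transgene is a single integrated line, the endogenous gene is not stated to be removed, and chromatin came from all tissues at once, so the cells behind a peak cannot be told. Both samples carry the transgene and the mutation.

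CEH-63 is a homeodomain protein, a class of transcription factors that read short AT-rich words such as TAATTA, and it is known from the DVC interneuron. Binding sites of transcription factors in the compact genome of this nematode are mostly sought in intergenic DNA just upstream of genes and in introns. Coding exons are transcribed, hold codons, and are richer in G and C than introns and intergenic DNA, and peaks in the bodies of active genes are a common component of ChIP-seq lists.

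Among the strongest sites, 7 are shown so that the sequence can be read beside the values. The first 3 reached a q-value of 0.05 or less, the next 3 are the reproducible sites that lacked a counterpart in replicate 2, and the last has the highest GC content among the 20 strongest. Each is the summit base with 50 bases to either side, on the strand of the host gene, from the RefSeq FASTA of WBcel235 (the same assembly as ce11). Capitals mark coding bases and lower case marks intron.
mdt-26 summit, chrII:5662750-5662850, plus strand: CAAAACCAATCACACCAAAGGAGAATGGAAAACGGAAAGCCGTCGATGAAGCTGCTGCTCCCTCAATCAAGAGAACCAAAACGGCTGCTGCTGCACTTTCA
gbb-2 summit, chrIV:4490293-4490393, minus strand: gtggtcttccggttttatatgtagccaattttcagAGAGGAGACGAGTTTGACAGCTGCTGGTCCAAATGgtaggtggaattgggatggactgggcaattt
T12D8.5 summit, chrIII:13626275-13626375, minus strand: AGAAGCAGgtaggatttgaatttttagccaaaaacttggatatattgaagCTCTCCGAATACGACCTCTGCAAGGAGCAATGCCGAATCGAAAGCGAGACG
icl-1 summit, chrV:727475-727575, minus strand: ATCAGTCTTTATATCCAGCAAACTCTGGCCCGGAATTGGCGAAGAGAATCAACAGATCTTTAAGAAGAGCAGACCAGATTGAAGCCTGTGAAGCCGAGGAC
hsp-90 summit, chrV:14686566-14686666, plus strand: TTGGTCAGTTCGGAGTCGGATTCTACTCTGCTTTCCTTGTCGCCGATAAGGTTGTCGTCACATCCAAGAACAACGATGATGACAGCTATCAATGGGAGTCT
crt-1 summit, chrV:6099450-6099550, minus strand: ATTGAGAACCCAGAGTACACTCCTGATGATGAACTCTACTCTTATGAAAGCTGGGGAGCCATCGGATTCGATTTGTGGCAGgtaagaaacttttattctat
rsp-3 summit, chrIII:12687564-12687664, minus strand: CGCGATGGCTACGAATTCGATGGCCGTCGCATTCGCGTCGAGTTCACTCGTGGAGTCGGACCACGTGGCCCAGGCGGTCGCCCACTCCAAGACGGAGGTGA
The mdt-26, icl-1, hsp-90 and rsp-3 windows are coding throughout. The gbb-2 window shows how short a host exon can be: the 35 capitals are the whole exon, with intron on both sides. The T12D8.5 and crt-1 windows each cross an exon boundary. None of the 7 holds TAATTA.

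Coding-exon peaks were missing from the very top of the pooled list, and their share grew from band to band down to rank 3000 only. The 117 autosomal peaks stronger than the first coding-exon peak included 80 intergenic, 23 intronic, 10 non-coding-exon and 4 UTR summits and no coding summit (0 of 117, Wilson 95% upper bound 3.18%). The strongest band of ranks is the one filled by the authors' reproducible list. In it, 58 of 376 autosomal summits were coding, or 15.4% (Wilson 95% interval 12.1 to 19.4), while 52.9% were intergenic. The coding share was 33.6% (29.3 to 38.3) in the next band, up to rank 1000, 36.7% in the band up to 2000 and 38.1% in the band up to 3000. It then declined slowly, to 37.6% in the band up to rank 5000, 34.8% in the band from 10000 to 20000 and 33.6% in the last band, up to 30000. Over the top 3000 it was 33.4%, against 34.6% over all 24799 autosomal pooled peaks, and coding sequence covers 25.6% of the autosomes. The class thus lay below its genomic share only in the strongest of the 8 bands and above it in the 7 others. These shares describe how the list is built, since rank was used by the selection, and their intervals cover the counting of peaks alone.

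In each replicate's own list the coding share was also lowest in the strongest band, at a different level. In the strongest band of ranks, 97 of 381 autosomal peaks were coding in replicate 1, or 25.5% (21.3 to 30.1), and 37 of 377 in replicate 2, or 9.81% (7.20 to 13.2). Above the rank of the first pooled coding-exon peak, the list of replicate 1 had 11 coding summits of 117 autosomal ones and replicate 2 had 2 of 113. Over the whole lists the shares were 37.7% in replicate 1 and 31.5% in replicate 2. Replicate 1 therefore held more coding-exon peaks at the top and throughout. Against the 25.6% of the autosomes that is coding, the strongest band lay clearly below in replicate 2 alone. In replicate 1 it was at about that share. Read depth is unknown, and its part in the difference between the replicates was not tested.

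**Figure D1:**
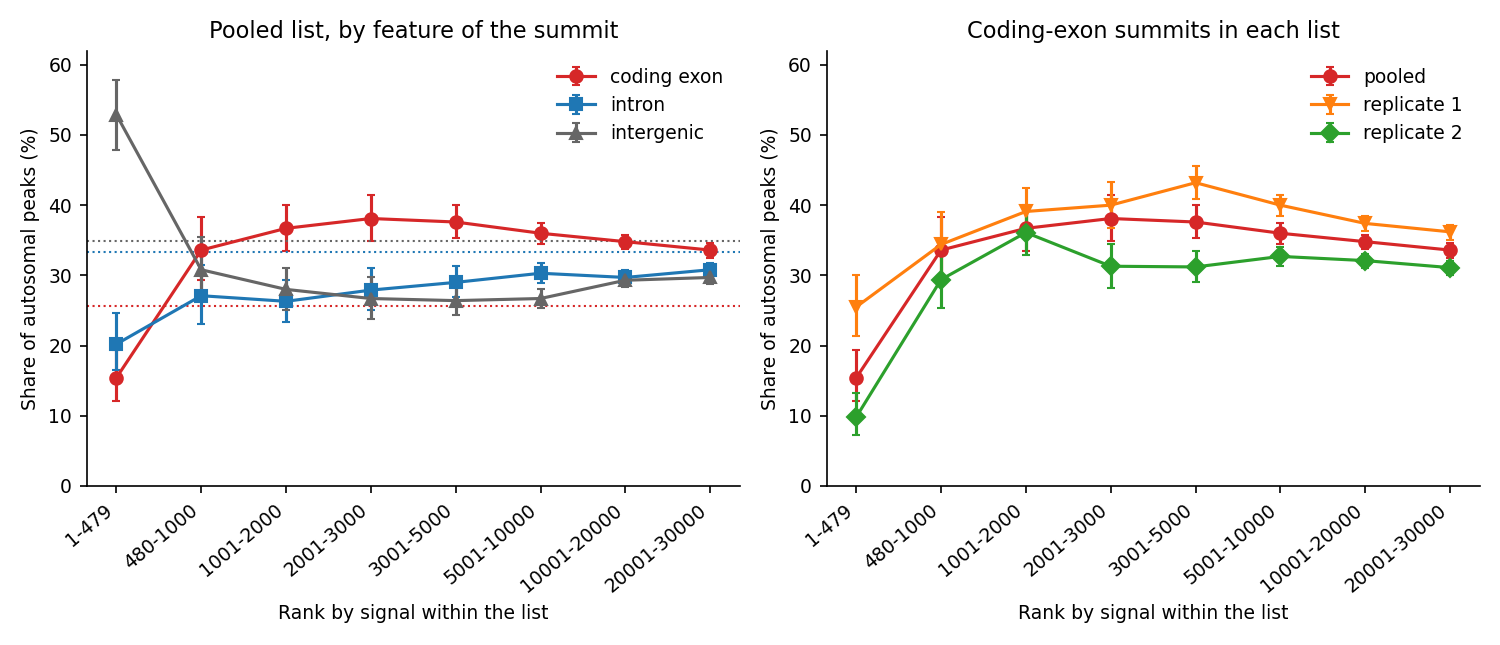
Share of autosomal peaks (%, y axis) by rank of signal within a list (x axis, 8 bands), with Wilson 95% intervals: left, coding-exon, intronic and intergenic summits of the pooled list, with dotted lines at each feature's share of the autosomes; right, coding-exon summits in the pooled list and in each replicate's list. The pooled coding share is 15.4% in the strongest band and at least 33.6% in every later one, and replicate 1 lies above replicate 2 in every band.

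The signal of the 827 peaks covered a narrow range. It was 152 at the strongest, 87.8 at the median and 79.3 at the weakest. The 3 peaks just inside the limit were the weaker of the peaks in the elongation factor gene eef-2 (signal 79.28, rank 2991), one in unc-95 (79.25, rank 2994) and one in ugt-58 (79.25, rank 2995). The 3 coding-exon peaks just outside were in abtm-1 (79.21, rank 3005), clec-80 (79.18, rank 3008) and dnj-19 (79.16, rank 3009), so nothing in signal separates the peaks on either side. Statistical support was low: the median −log10 q was 0.122 and the highest 1.39. A q-value of 0.05 or less was reached by 3 of the 827 (0.363%), against 0.609% of all autosomal pooled peaks. The authors' reproducible list held 58 of the 827, while 1.52% of all autosomal pooled peaks are in it. Both counts follow from the signal that chose the peaks, and nothing is read from them.

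The label of the class holds for the summits and less strictly for the whole intervals, which are 370 bp wide. The median interval was 80.0% coding, 728 of 827 (88.0%) were at least 50% coding, and 180 (21.8%) were coding from end to end. The lowest value, 9.46%, belonged to gbb-2, where the summit fell on the 35-bp exon shown above.

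The strongest coding-exon peak lay in mdt-26 (WBGene00016115), which encodes a subunit of the Mediator complex (chrII:5662615-5662984, exon 5 of 8, counted over coding exons here and below, signal 152, pooled rank 152). It ranked 244 in replicate 1 and 264 in replicate 2, and its own transcript start was 1606 bp away. The peak in gbb-2, a GABA-B receptor subunit gene, had nearly the same signal (chrIV:4490158-4490527, rank 153, exon 18 of 19) and ranked 250 in replicate 1 and 131 in replicate 2. This summit was 16405 bp from the nearest start of gbb-2 and 53 bp from the start of another gene, ZK180.10, so the host named by its exon is not the gene with the closest start. The third, in the last coding exon of T12D8.5 (chrIII:13626140-13626509, signal 145, rank 183), ranked 146 in replicate 1 and 381 in replicate 2. These 3 are the ones with a q of 0.05 or less.

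The next peaks were uneven between the replicates. The peak in icl-1, which encodes the bifunctional enzyme of the glyoxylate cycle (chrV:727340-727709, signal 135, rank 226), ranked 160 in replicate 1 and had no summit within 200 bp in replicate 2, where the nearest lay 232 bp away with rank 421. In hsp-90, which encodes the cytosolic HSP90 chaperone (chrV:14686431-14686800, signal 132, rank 242), the peak ranked 54 in replicate 1, and the nearest summit of replicate 2 was 264 bp away with rank 916. A stronger peak of rank 23, in an intron, lies 834 bp from it. In the calreticulin gene crt-1 (chrV:6099315-6099684, signal 116, rank 396), the peak ranked 74 in replicate 1, and the nearest summit of replicate 2 was 883 bp away with rank 12958. The hsp-90 and crt-1 peaks were the only coding-exon peaks of the 827 matched to a summit within the top 100 of either replicate, and none was matched within the top 100 of both.

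The imbalance ran the other way for other strong sites. The peak in cel-1, the mRNA capping enzyme gene (signal 132, pooled rank 240), ranked 5694 in replicate 1 and 148 in replicate 2. The peak in coding exon 1 of W06H8.6 (signal 125, rank 301) ranked 9881 in replicate 1 and 161 in replicate 2. That in pqn-51 (signal 132, rank 241) ranked 978 in replicate 1 and 168 in replicate 2. A pooled rank in this range can thus rest mainly on one replicate. Among the others of the 20 strongest, picd-1 (signal 133) ranked 135 in replicate 1 and 1087 in replicate 2, and rsp-3, an SR-protein splicing factor gene (signal 132), ranked 104 in replicate 1 and 950 in replicate 2. The peak in egl-4, which encodes a cGMP-dependent protein kinase (signal 125), ranked 117 in replicate 1 and 1056 in replicate 2. The other 9 of the 20, in C01G10.9, gei-4, hlh-11, src-1, Y53F4B.11, flh-2, nurf-1, col-151 and trap-4, a translocon-associated protein gene, ranked within the top 1000 of both replicates. So did the peaks in mdt-26, gbb-2, T12D8.5, pqn-51 and rsp-3 given above.

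The share of coding-exon peaks seen in the top 3000 of both replicates fell from band to band of pooled rank. Each peak was matched to the best-ranked summit within 200 bp in each replicate's list. Of the 58 in the strongest band, 47 (81.0%) had a counterpart in the top 3000 of both replicates, 8 in replicate 1 alone and 3 in replicate 2 alone. In the band up to rank 1000, 79 of 143 (55.2%) were in both. In the band up to 2000 this held for 47 of 308 (15.3%), and in the band up to 3000 for 3 of 318 (0.943%), where 84 (26.4%) were in neither. Over all 827, 176 were in both (21.3%, 18.6 to 24.2), 301 in replicate 1 alone, 246 in replicate 2 alone and 104 in neither. Support is part of what made the pooled signal, so this decline is a description. Nearly every peak had some summit nearby in each relaxed list: 23 lacked one in replicate 1 and 32 in replicate 2, and 772 had one in both.

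**Figure D2:**
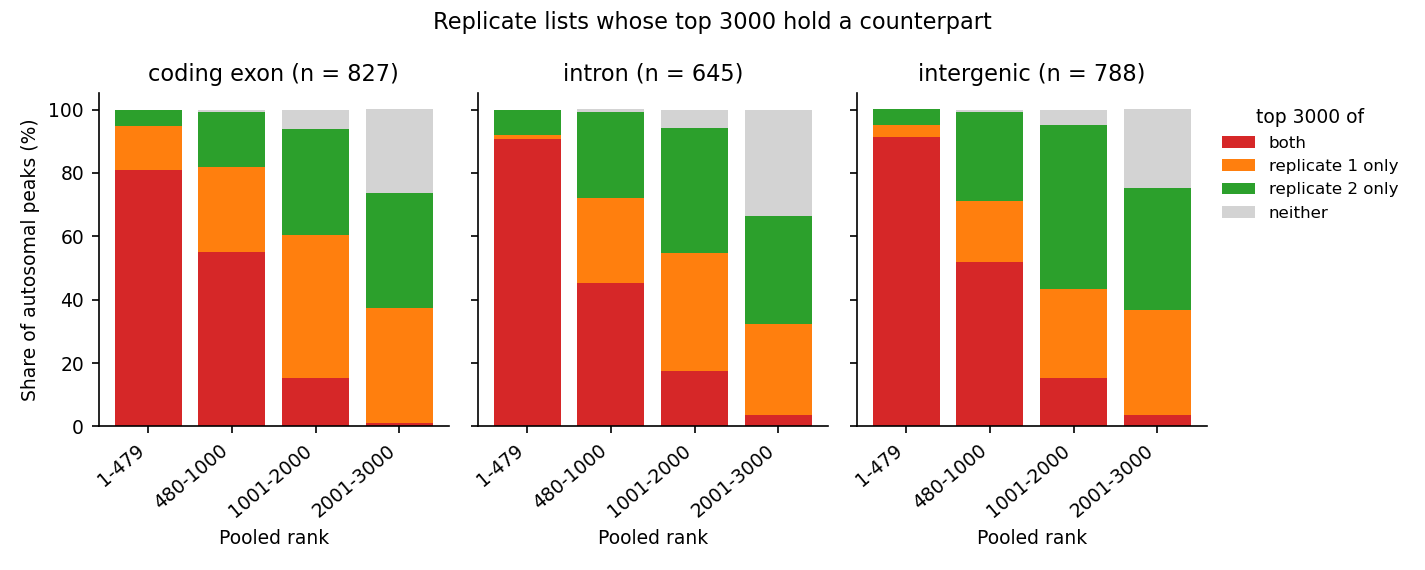
Share of autosomal peaks (%, y axis) in the top 3000 of both replicates, of 1 or of neither, by pooled rank (x axis, 4 bands), for coding-exon, intronic and intergenic summits of the pooled top 3000. In the strongest band both replicates hold a counterpart of 81.0% of coding-exon, 90.8% of intronic and 91.5% of intergenic peaks, and in the last band, up to rank 3000, of 0.943%, 3.43% and 3.59% in the same order of classes. Coding-exon peaks are not lowest in every band: up to rank 1000 the shares are 55.2%, 45.2% and 51.9%, and up to rank 2000 they are 15.3%, 17.6% and 15.3%.

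The strongest coding-exon peaks had better ranks in replicate 1, while intronic and intergenic peaks of the same band had better ranks in replicate 2. In the strongest band the median rank of the counterpart was 292 in replicate 1 and 828 in replicate 2 for coding-exon peaks. For intronic peaks it was 420 in replicate 1 and 238 in replicate 2, and for intergenic peaks 261 and 191. Over the whole top 3000 the coding-exon medians were 2270 in replicate 1 and 2665 in replicate 2, the intronic medians 2626 and 2354 and the intergenic medians 1914 and 1324, in the same order. In the band up to rank 3000 the coding-exon medians were close, 4068 in replicate 1 and 4012 in replicate 2. These medians were not tested between classes, because the same replicates made the pooled rank. One replicate summit can be the counterpart of more than one pooled peak, as for the pair in gei-4 (pooled ranks 254 and 2498), which share rank 164 of replicate 1.

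**Figure D3:**
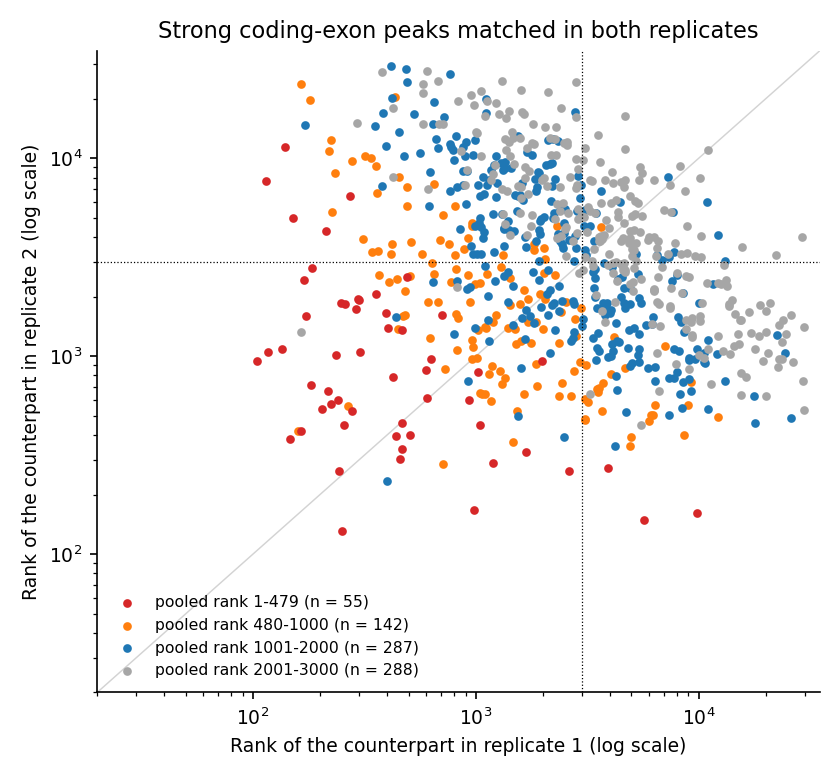
Rank of the matched summit in replicate 1 (x axis, log scale) against replicate 2 (y axis, log scale) for the 772 strong coding-exon peaks with a counterpart in both, coloured by pooled rank; dotted lines mark rank 3000 and the grey line equal ranks. Points of the strongest band have median ranks of 292 in replicate 1 and 828 in replicate 2, points above the grey line have the better rank in replicate 1, and the band up to rank 3000 has only 3 points under rank 3000 on both axes.

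Along the gene, the strong coding-exon peaks lay almost evenly. Their share at the beginning was somewhat higher, but neither test of it passed the threshold in the main comparison. The median position was 45.6% of the way along the coding sequence for the 827, against 48.7% for weaker coding-exon peaks and 49.9% for all autosomal coding positions. The first 10% of the coding sequence held 109 of 827 strong summits (13.2%), against 9.87% of weaker summits and 10.2% of coding positions. The last 10% held 68 (8.22%), against 8.59% of weaker summits and 10.1% of coding positions. Among the 58 reproducible peaks the first 10% held 13 (22.4%, 13.6 to 34.7) and the last held 2 (3.45%), which was not tested. The share in the third of the coding sequence nearest the start codon, 37.6% for strong and 34.6% for weaker peaks, did not pass the threshold (odds ratio 1.14, two-sided Fisher's exact test, adjusted p = 0.107).

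The first coding exon held 123 of the 827 strong peaks (14.9%) and 966 of the 7763 weaker ones (12.4%), a difference that missed the threshold after adjustment over 7 tests (odds ratio 1.23, Fisher's exact p = 0.0479, adjusted p = 0.0670). Autosomal coding positions sampled every 200 bases gave 12.4%. Later exons therefore held most of the strong peaks, and 13.9% were in the last coding exon, against 15.3% of weaker peaks and 16.7% of coding positions. By rank, the first-exon share was 24.1% in the strongest band, 16.8% in the band up to rank 1000, 14.9% up to 2000 and 12.3% up to 3000. With the limit set at the top 1000 peaks the odds ratio was 1.63 and passed, and at the top 5000 it was 1.20 and also passed. It passed in the list of replicate 2 (1.42). It did not pass in the list of replicate 1 (1.20), with 1 summit per gene (1.08) or against weaker peaks up to rank 10000 alone (1.20). Of the 20 strongest, 5 were in a first coding exon: pqn-51, Y53F4B.11, flh-2, a FLYWCH zinc finger gene, nurf-1, a subunit gene of the NURF chromatin remodeler, and W06H8.6.

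**Figure D4:**
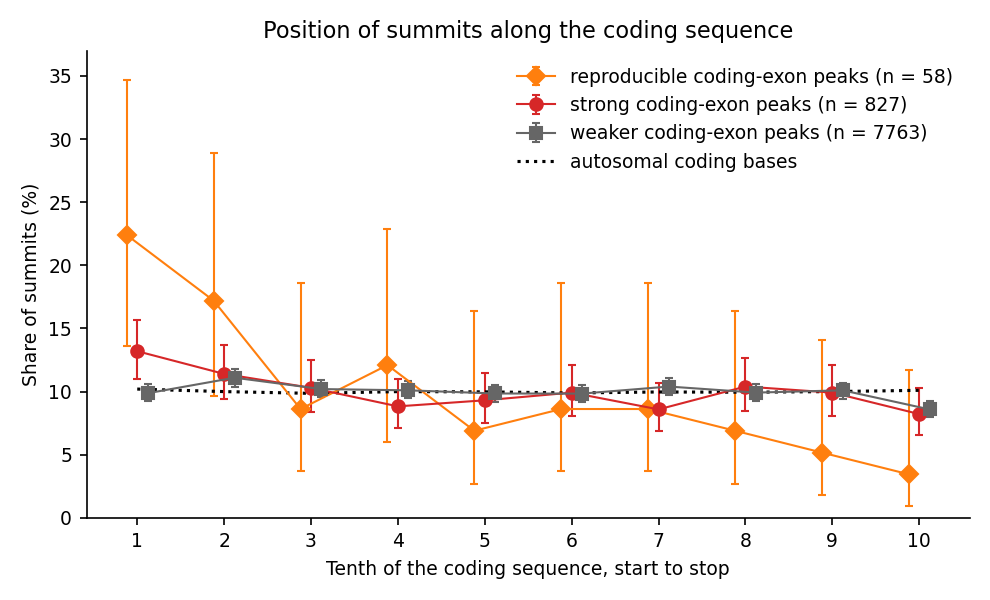
Share of summits (%, y axis) in each of 10 equal parts of the host's coding sequence from start to stop codon (x axis), with Wilson 95% intervals, for the 58 reproducible, the 827 strong and the 7763 weaker coding-exon peaks, with a dotted line for autosomal coding bases. The reproducible peaks reach 22.4% in the first of the 10 parts and 3.45% in the last, while the strong peaks have 13.2% and 8.22% there and the weaker peaks 9.87% and 8.59%.

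An annotated transcript start lay within 500 bp of more of the strong peaks than of the weaker ones. This held for 324 of 827 (39.2%, 35.9 to 42.5) against 2637 of 7763 (34.0%), with 32.7% of coding positions beside them (odds ratio 1.25, Fisher's exact test, adjusted p = 0.00707). For 267 of the strong peaks the start was one of the host gene, and 119 of these were also in its first coding exon. For 57 it belonged only to another gene, and in 44 of these 57 the nearest start was that of a non-coding gene, among them 18 ncRNA, 14 piRNA and 5 snoRNA genes. The same count was not made for weaker peaks or coding positions, so nothing is read from it. The other 503 (60.8%) had no start within 500 bp. The share was 63.8% in the strongest band, 41.3% in the band up to rank 1000, 38.3% up to 2000 and 34.6% up to 3000. The difference no longer passed with the 58 reproducible peaks left out (odds ratio 1.16) or with 1 summit kept per gene (1.08). Examples without a start nearby are mdt-26, src-1, the Src-family kinase gene (2985 bp from its own start), and hlh-11, a basic helix-loop-helix factor gene (1231 bp), while the peak in the collagen gene col-151 is 88 bp from the start of AC3.14.

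GC content gave the largest odds ratio of the 7 properties tested. The window of 50 bases to either side of the summit had a median GC content of 44.6% (quartiles 40.6 and 49.5) in the 827 strong peaks, against 42.6% (37.6 and 47.5) in weaker coding-exon peaks and 40.6% in autosomal coding positions. Above 42.6%, the median of the weaker peaks, lay 494 strong peaks (59.7%), 3604 weaker peaks (46.4%, 45.3 to 47.5) and 36.8% of coding positions (odds ratio 1.71, Fisher's exact test, adjusted p = 2.35e-12). Neighbouring peaks and peaks of 1 gene are not independent, so the p-value describes these sets of peaks and not replicate animals. The call held in every alternative run, with odds ratios from 1.39 to 2.00, among them 1.73 for peaks with no start within 500 bp in both sets.

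The GC content followed rank step by step. Its median was 47.5% in coding-exon peaks of the strongest band, 45.5% in the band up to rank 1000, 44.6% up to 2000, 44.1% up to 3000, 43.6% up to 5000, 42.6% in both bands from there to 20000 and 41.6% in the last band, up to 30000. Each replicate's own list was compared in 2 sets only, its top 3000 and the rest. In replicate 1 the median was 45.5% in its top 3000 (912 coding-exon peaks) and 42.6% beyond (8457), with an odds ratio of 1.83. In replicate 2 it was 43.6% in the top 3000 (724 peaks) and 41.6% beyond (7056), with an odds ratio of 1.50, and both passed the threshold. Among the strong peaks, the median was 46.0% for those in the top 3000 of both replicates, 45.5% in replicate 1 alone, 43.6% in replicate 2 alone and 44.6% in neither. The control library and the read coverage were not analysed here, and the part of base composition in sequencing or peak calling was not tested.

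**Figure D5:**
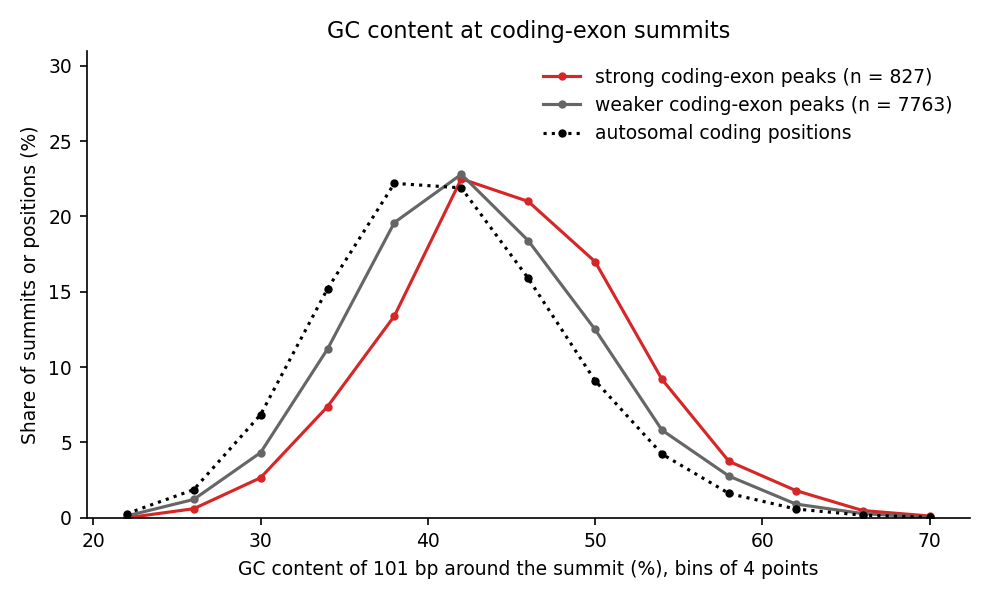
Share of summits or positions (%, y axis) by GC content of the 50 bases to either side (x axis, bins of 4 percentage points) for the 827 strong and 7763 weaker coding-exon peaks and for autosomal coding positions. The curve of the strong peaks is shifted to the right of the weaker peaks (medians 44.6% and 42.6%), and both lie to the right of coding positions (40.6%).

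The remaining properties differed less. The strong peaks lay in longer coding segments, with a median of 321 bp against 286 bp for weaker peaks and 261 bp for coding positions. Segments longer than 286 bp held 57.1% of strong and 49.9% of weaker peaks (odds ratio 1.33, Fisher's exact test, adjusted p = 0.000362), and the call was lost against weaker peaks up to rank 10000 alone (odds ratio 1.04), with intervals at least 50% coding (1.19) and in the list of replicate 2 (1.15). The third of each chromosome at its centre, where conserved and broadly expressed genes of this species are concentrated, held 268 strong peaks (32.4%) against 37.2% of weaker peaks and 40.3% of coding positions (odds ratio 0.810, Fisher's exact test, adjusted p = 0.0123). That difference did not pass with the limit at the top 1000 (0.898) or the top 5000 (0.902), against weaker peaks up to rank 10000 alone (0.830) or in the list of replicate 2 (0.875).

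The homeodomain word TAATTA, searched within 50 bp of the summit (it is its own reverse complement, so both strands are covered), was in 16 of 827 strong peaks (1.93%, 1.19 to 3.12). It was in 168 weaker peaks (2.16%) and 2.40% of coding positions, with no difference past the threshold (odds ratio 0.892, Fisher's exact test, adjusted p = 0.800). None of the 58 reproducible coding-exon peaks held it (Wilson 95% upper bound 6.21%). The shorter word TAAT on either strand, which is part of TAATTA, was in 41.6% of strong and 47.5% of weaker peaks (odds ratio 0.788, Fisher's exact test, adjusted p = 0.00331, where the other settings tried for this word gave 0.201 to 1.00). The strong peaks also had the higher GC content given above, and its part in this difference was not tested.

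By chromosome, the strong peaks numbered 184 on I, 156 on II, 173 on III, 160 on IV and 154 on V. Per megabase of coding sequence this gave 46.7 on I, 37.8 on II, 48.8 on III, 40.4 on IV and 27.6 on V, so V had the lowest density. Chromosome V held 18.6% of the strong and 24.6% of the weaker coding-exon peaks. The reproducible ones numbered 9, 10, 17, 10 and 12 in the same order of chromosomes, and these counts were not tested.

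The 827 peaks fell in 773 host genes, or 4.48% of the 17242 autosomal protein-coding genes, and 1 summit lay in coding segments of 2 genes at once. Long genes were hosts more often: when the genes were put into 4 groups of nearly equal size by coding length, the share was 1.51% in the shortest, 2.54% and 4.55% in the next ones and 9.37% in the longest. The median coding length was 1482 bp in hosts against 987 bp in all autosomal protein-coding genes. Counted per peak, it was 1548 bp for strong and 1548 bp for weaker coding-exon peaks, with 1479 bp for autosomal coding positions. A longer coding sequence holds more positions for a summit, so host length is not read as a trait of the strong peaks. The counts by gene list below stand beside 4.48% and, for some lists, beside the median coding length of the list. Counts of hosts by a peak with no start within 500 bp stand instead beside 477 of the 17242 genes, a smaller share. The lists are patterns of gene symbols, so genes of a class with another name are not counted. No list was tested, and a peak in an exon does not show that CEH-63 bound there.

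Among genes of protein synthesis, 6 of 79 ribosomal protein genes were hosts (7.59%, median coding length 438 bp). The strongest of them were rps-4 (signal 102, rank 751, exon 2 of 3) and rpl-12 (signal 96.4, rank 993). The rps-4 summit was 41 bp from the start of Y43B11AR.7, and the rpl-12 peak lay 568 bp from a stronger peak. All 6 had a start within 500 bp, since without such peaks 0 of 79 remained. Coding sequences this short leave little room away from a start, so nothing is read from that 0. Translation factor genes had 5 of 37 hosts (13.5%), led by eef-2, which encodes elongation factor 2 (chrI:9165989-9166358, signal 118, rank 363), and by the initiation factor gene eif-1 (signal 102, rank 727). The eef-2 peak ranked 258 in replicate 1 and 1834 in replicate 2, and 4 of 37 were hosts by a peak with no start within 500 bp. Aminoacyl-tRNA synthetase genes had 4 of 32 (12.5%, median coding length 1784 bp), all 4 by a peak with no start within 500 bp. The strongest were mars-1 (signal 99.0, rank 855) and rars-1 (90.3, rank 1432). The mars-1 summit was 529 bp from the nearest start, just past that limit.

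Chaperone genes had 9 of 60 hosts, led by hsp-90 and crt-1. Glycolysis and gluconeogenesis genes had 6 of 20 (30.0%, median coding length 1448 bp), and 5 of 20 by a peak with no start within 500 bp. The strongest of these were gpi-1, which encodes glucose-6-phosphate isomerase (chrI:13578582-13578951, signal 94.5, rank 1096), and enol-1, which encodes enolase (chrII:8932607-8932976, signal 92.2, rank 1266). The gpi-1 peak ranked 642 in replicate 1 and 14856 in replicate 2, and the enol-1 peak 1677 in replicate 1 and 3569 in replicate 2, so neither was in the top 3000 of both. Vacuolar ATPase genes had 2 of 18 (11.1%). These were vha-2 (signal 114, rank 443) and vha-1 (108, rank 541), neighbouring genes for subunits of the proton channel whose peaks lie 726 bp apart. Respiratory chain and ATP synthase genes had 3 of 39 (7.69%), with ucr-2.3 (rank 781) and cox-5A the strongest, while the complex I subunit gene ndua-5 (rank 746) lies outside the pattern. Proteasome genes had 2 of 33 (6.06%), rpt-6 and pbs-6.

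Of the nuclear lists, chromatin genes had 7 of 54 hosts (13.0%, median coding length 1674 bp), with nurf-1 (rank 299) outside the pattern and stronger than any of the 7. The strongest within it were the histone deacetylase gene hda-6 (signal 110, rank 511) and swsn-2.2, a SWI/SNF subunit gene (98.7, rank 872). Nuclear pore and RNA polymerase genes had 5 of 48 (10.4%), led by npp-7 and npp-13, and splicing and RNA helicase genes 3 of 45 (6.67%), led by rsp-3 and prp-21. Histone genes had 1 of 75 (1.33%, median coding length 381 bp), the histone H3.3 gene his-72, and homeobox genes 1 of 58 (1.72%, 818 bp), ceh-22, the NK-2 class gene of the pharynx (signal 82.9, rank 2328). Nuclear hormone receptor genes had 12 of 247 (4.86%), close to the 4.48% of all genes, with nhr-19 and nhr-133 the strongest.

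Structural genes included 13 of 157 collagen and cuticle genes (8.28%), led by col-151 (signal 125, rank 304) and col-48 (111, rank 493, GC content 66.3%). Basement membrane genes had 2 of 7 (28.6%), emb-9 for type IV collagen (signal 80.3, rank 2802) and cle-1 for collagen XVIII (79.4, rank 2961). Both lie near the limit of rank 3000, and the list has a median coding length of 5277 bp. Muscle genes had 2 of 25: unc-89, the obscurin homologue (signal 121, rank 337), and unc-22, the twitchin gene (85.9, rank 1931). Tubulin and kinesin genes had 1 of 24 (4.17%), tbg-1, the gamma-tubulin gene.

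Chemoreceptor genes had 18 of 1322 (1.36%, median coding length 999 bp), led by srt-43 (signal 97.1, rank 953) and srv-16 (96.5, rank 987). F-box and MATH genes had 7 of 378 (1.85%), led by bath-40 and fbxc-25, and C-type lectin genes 7 of 237 (2.95%), led by clec-150 and clec-89. Detoxification genes had 7 of 171 (4.09%), with the glutathione S-transferase gene gst-40 (signal 122, rank 331) and cyp-13A10 the strongest. Neuropeptide genes had 2 of 106 (1.89%, median coding length 278 bp), flp-14 and nlp-43, and genes of the ion channel and receptor pattern had 4 hosts (3.96%), with lgc-54 and acr-24 the strongest of the pattern. That pattern takes in neither gbb-2 nor the channel genes shw-3 (rank 683) and cng-2 (rank 860), so its count is not one of all channel and receptor genes. The single autosomal vitellogenin gene was not a host.

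Most hosts held a single strong peak: 723 had 1, 46 had 2 and 4 had 3. The 4 were icl-1, hsp-90, ehs-1, the Eps15 endocytosis gene, and mnk-1, the MAP kinase-interacting kinase gene. In icl-1 the peaks had pooled ranks 226, 498 and 1347 and lay in exons 2, 2 and 4 of 5. In hsp-90 they had ranks 242, 697 and 1386 and lay in exons 2, 2 and 4 of 4. The ehs-1 peaks had ranks 355, 1574 and 2203, and those of mnk-1 ranks 1699, 2042 and 2177. Intervals of 370 bp can overlap, as for the first pairs in icl-1 (235 bp apart) and hsp-90 (262 bp apart), so peaks of 1 gene are not separate observations. Across the 827, 50 (6.05%) had a stronger pooled peak within 1000 bp, which was coding in 19, intergenic in 16, intronic in 11, UTR in 3 and a non-coding exon in 1. Weaker peaks and other classes of summit were not counted in this way, so nothing is read from these numbers.

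Exact copies of the central 31 bases were found for few of these sites. Copies with mismatches, or of other parts of the interval, were not searched for. The central 31 bases of 2 of the 827 peaks, in eef-1A.1 (rank 1103) and lep-2 (rank 1552), occur in more than 1 copy in the genome, against 53 of the 7763 weaker peaks (0.683%). How reads with more than 1 match were placed is not given in the sources used here, so the position of those peaks is uncertain.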

How the data were processed

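The data are peak lists from ChIP-seq of 2 biological replicates, on the ce11 assembly per the labels. Per the deposited README text, peaks were called for each replicate and for both together, each time with a control alignment, and a reproducible list was derived from these by IDR (irreproducible discovery rate). The sources used here name no aligner, peak caller or IDR cutoff. Each peak has a signal value that the authors deposited without a stated scale, so signal was used to rank peaks within a list only. A −log10 q-value per peak was deposited too, by the definition of the narrowPeak format, with the p-value column unset. The files hold no read counts, so depth is unknown and the Wilson 95% intervals cover the counting of peaks only.

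Summits were placed on the Ensembl release 115 gene models, with coordinates 1-based, by the order coding exon, UTR, non-coding exon, intron and intergenic, pseudogenes left out. Position, exon number and segment length refer to the longest coding sequence that holds the summit. Coding positions are every base 200 apart along the autosomal coding sequence. Sequence came from the RefSeq genome of WBcel235. The control library was not used here. The strong and weaker coding-exon peaks were compared for 7 properties by Fisher's exact test (two-sided), with Benjamini-Hochberg adjustment over the 7 and a threshold of 0.05. The steps were tested on simulated data and run with Python 3.11.15, numpy 2.4.6, pandas 2.3.3, scipy 1.17.1 and matplotlib 3.10.9.

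The 827 peaks, the 26 gene lists (symbol patterns) and the tests were chosen with earlier results of these data known. After the counts had been seen, 3 patterns that took in unrelated genes were corrected (chemoreceptors, RNA polymerase, homeobox). Named genes are the hosts of the 20 strongest coding-exon peaks, genes with 3 such peaks, up to 2 strongest hosts of each list with 2 or more, the peaks on either side of the rank limit, and reproducible peaks that lack a counterpart. The genes eef-1A.1, lep-2, his-72, ceh-22, tbg-1, shw-3, cng-2 and ndua-5 were named after their values were seen. Alternatives to the rank limit, the weaker set, the summit distance, the start distance, the GC window, the transcript, the word searched and the replicate were run, and 2 more were added after the data were seen (peaks with no start within 500 bp, and peaks outside the reproducible list). Every peak list was used, and the result of 1 gene list is not reported here.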

Additional observations from a re-analysis of the deposited data

How the results depend on the processing

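Of the 7 tests, the odds ratio for high GC content passed under every alternative run (1.39 to 2.00). With the limit at the top 1000 peaks the odds ratio was 1.63 for the first coding exon, now past the threshold, 0.898 for the chromosome centre, no longer past it, and 1.17 for TAATTA, the opposite direction. At the top 5000 it was 1.20 for the first coding exon and 1.21 for the third of the coding sequence nearest the start codon, both now passing, and 0.902 for the chromosome centre, which no longer passed. Against weaker peaks up to rank 10000 alone, starts (1.17), long segments (1.04) and the chromosome centre (0.830) no longer passed, and TAATTA turned to 1.18. Starts also missed the threshold with 1 summit per gene (1.08), intervals at least 50% coding (1.20), distances of 250 bp (1.21) and 1000 bp (1.11), and without the reproducible peaks (1.16), and long segments did at 50% coding (1.19). TAATTA within 100 bp gave 1.10, TAAT within 50 bp gave 0.788 and passed, and the first coding exon gave 0.814 among peaks with no start within 500 bp, a filter that removes nearly every first coding exon (119 of the 123 had their own start that close), so nothing is read from that value. With each replicate's own list in place of the pooled one, the odds ratio ranged from 1.20 to 1.42 for the first coding exon, from 1.12 to 1.21 for the part nearest the start codon, from 1.15 to 1.36 for long segments, from 0.670 to 1.20 for TAATTA and from 0.731 to 0.875 for the chromosome centre, and the coding share of the autosomal top 3000 ranged from 29.3% to 36.5%. In the list of replicate 2 long segments and the chromosome centre no longer passed, while the first coding exon and the part nearest the start codon did. The coding share was 29.4% for intervals at least 50% coding and 25.1% in the top 1000. Support in both replicates was 18.1% with summits within 100 bp and 50.5% with counterparts up to rank 6000, and 477 genes were hosts by a peak with no start within 500 bp. The cause was not tested, except that smaller sets hold fewer peaks. No paired analysis was possible because the series has a single group. Read depth is unknown, so no value here can be weighed by it.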
